A study of Mus musculus with 17 samples.

Results

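The genes described here encode the signalling subunits of the T-cell receptor and the proteins that act next to it: the CD3 chains Cd3d, Cd3e and Cd3g, the zeta chain Cd247, the kinases Lck and Zap70, the adaptors Lat and Sh2d1a, and the receptors Cd2 and Cd28. They were chosen by symbol, as probe sets that the platform annotation gives to exactly 1 of these 10 genes, with 1 probe set per gene, that of the highest mean over the 17 arrays. Of the 10 genes, 9 had such a probe set and Lck was not analysed here. The 9 are among 17097 genes with a probe set of 1 symbol, and all 9 passed the filter on low values, which left 11629 genes tested.

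The arrays fall into 5 groups, all from wildtype mice of the strain C57/Bl6. The leukemia groups are spleen cells of diseased recipients that had been given donor cells transformed with Myc and Bcl2, and the labels describe them as sorted for the myeloid markers CD11b and Gr1 and against CD3, CD4 and CD8. The transformed cells were DN2 cells (early T-cell progenitors of the thymus, at the second stage that lacks CD4 and CD8; 5 arrays), LSK cells (marrow cells without lineage markers, with Sca1 and c-kit, enriched for stem cells; 3 arrays) or GMP (granulocyte-macrophage progenitors of the marrow; 5 arrays). The reference groups are untransformed DN2 cells from healthy thymus (2 arrays) and untransformed GMP from healthy marrow (2 arrays). Recipients were 4 to 8 weeks old and had been irradiated with 4.5 to 6 Gy, and their spleens also hold the host's own cells. Nothing in the labels says that replicates are separate mice, so p-values measure only the spread between these samples, which may be technical.

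The T-cell receptor recognises antigen through a pair of variable chains that have almost no cytoplasmic part. The signal is carried by the CD3 and zeta chains, whose tyrosine motifs are phosphorylated by Lck and then bind Zap70. Zap70 phosphorylates the membrane adaptor Lat, on which the next enzymes assemble. Cd2 is an adhesion receptor of T and NK cells, Cd28 is the main co-stimulatory receptor of T cells, and Sh2d1a (SAP) is the adaptor of the SLAM family of receptors. In the thymus the genes are switched on in steps as progenitors commit to the T lineage. NK cells use several of the same proteins, among them Cd247, Zap70, Lat, Cd2 and Sh2d1a.

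Cd3d, Cd3g and Cd3e are neighbours on mouse chromosome 9, and Cd3d and Cd3g point away from each other with 1355 bases between their starts, so their upstream sequences are shown because the 3 genes differed in how they were distributed over the groups. Each is the 250 bases before the annotated start, from RefSeq in the build GRCm38.p6, read 5′ to 3′ on the gene's own strand: Cd3d at chr9:44981536-44981785 (plus strand), Cd3g at chr9:44980432-44980681 (minus strand) and Cd3e at chr9:45009612-45009861 (minus strand). Capitals mark matches on either strand to 6 motifs. The letters AGGAAG were searched for Ets factors and the letters CAGGTG for the E proteins of early T cells. Factors of the GATA family were represented by the letters AGATAA, and Tcf and Lef factors by the letters ATCAAAG. The letters TGTGGT stood for Runx factors, and the E-box with letters CACGTG for the Myc family. No marked motif overlaps another.
Cd3d: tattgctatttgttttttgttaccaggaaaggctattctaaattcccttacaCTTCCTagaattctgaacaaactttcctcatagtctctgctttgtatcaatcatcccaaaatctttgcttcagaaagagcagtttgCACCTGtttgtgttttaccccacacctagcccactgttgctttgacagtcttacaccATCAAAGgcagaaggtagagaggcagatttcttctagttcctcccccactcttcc
Cd3g: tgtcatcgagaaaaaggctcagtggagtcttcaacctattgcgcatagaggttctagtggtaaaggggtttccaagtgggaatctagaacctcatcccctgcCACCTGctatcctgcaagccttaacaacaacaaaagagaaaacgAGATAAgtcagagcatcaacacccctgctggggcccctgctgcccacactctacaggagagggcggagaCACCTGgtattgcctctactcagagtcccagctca
Cd3e: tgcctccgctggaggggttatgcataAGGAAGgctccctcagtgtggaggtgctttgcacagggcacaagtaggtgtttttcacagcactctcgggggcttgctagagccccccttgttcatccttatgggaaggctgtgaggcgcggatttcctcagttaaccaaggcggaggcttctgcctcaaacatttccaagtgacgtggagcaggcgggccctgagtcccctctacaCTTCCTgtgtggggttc
The Cd3d window held 1 match each to the Ets, E-protein and Tcf letters, the Cd3g window 2 E-protein matches and 1 GATA match, and the Cd3e window 2 Ets matches. Among 32851 RefSeq promoter windows of the same length, the Ets letters were found in 29.5%, the E-protein letters in 17.2%, the Runx letters in 14.0%, the GATA letters in 9.99%, the Myc family letters in 6.02% and the Tcf letters in 3.21%. Neither the Runx nor the Myc family letters are in these 3 windows, which says only that these letters are not there. Of the 10 genes, 7 are in the promoter table.

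Levels are the deposited log2 expression values. A difference is a subtraction of group means on that scale, given with the standard error (SE) that limma estimates. The median over all values was 3.83, and no array median exceeded 3.86. A value close to that median is mostly background, and differences measured from such a level are understated. The genes of the sort show how the arrays stand to their labels. Itgam, which encodes CD11b, had 7.17, 3.47, 7.38, 3.24 and 3.42 in DN2-labelled leukemia arrays 1 to 5, against 8.99 to 10.03 in the LSK-labelled and 8.06 to 9.95 in the GMP-labelled arrays. Mean levels over 13 neutrophil genes ran from 3.70 to 4.82 in the DN2-labelled arrays, against at least 10.08 in the other leukemia arrays. Within that list S100a8 and S100a9 varied most between the DN2-labelled arrays, by 4.64 and 4.76, both highest in array 5. Monocyte and macrophage genes were less uniform: the mean over the 8 measured was 3.87 to 7.34 in the DN2-labelled arrays, against 7.46 to 8.08 in the GMP-labelled ones, with Lyz2 at 11.48, Cd68 at 8.83 and Adgre1 at 7.60 in DN2-labelled array 1. Of the genes of the markers sorted against, Cd4 and Cd8a were near background in the DN2-labelled arrays, and Cd8b1 was 5.84 to 7.81. In all 5 DN2-labelled arrays the RNA thus went against the described sort in the mean of the neutrophil genes and in the CD3 chains. In arrays 2, 4 and 5 it did so in Itgam too. Directions given for the DN2-labelled leukemias hold for the arrays so labelled. The Myc relative Mycn was 11.58 to 12.10 in the DN2-labelled and 12.06 to 13.15 in the GMP-labelled arrays. It was 12.82 in LSK-labelled array 1 and 4.91 and 4.22 in LSK-labelled arrays 2 and 3, close to the 3.96 to 4.58 of the healthy cells.

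**Figure D1:**
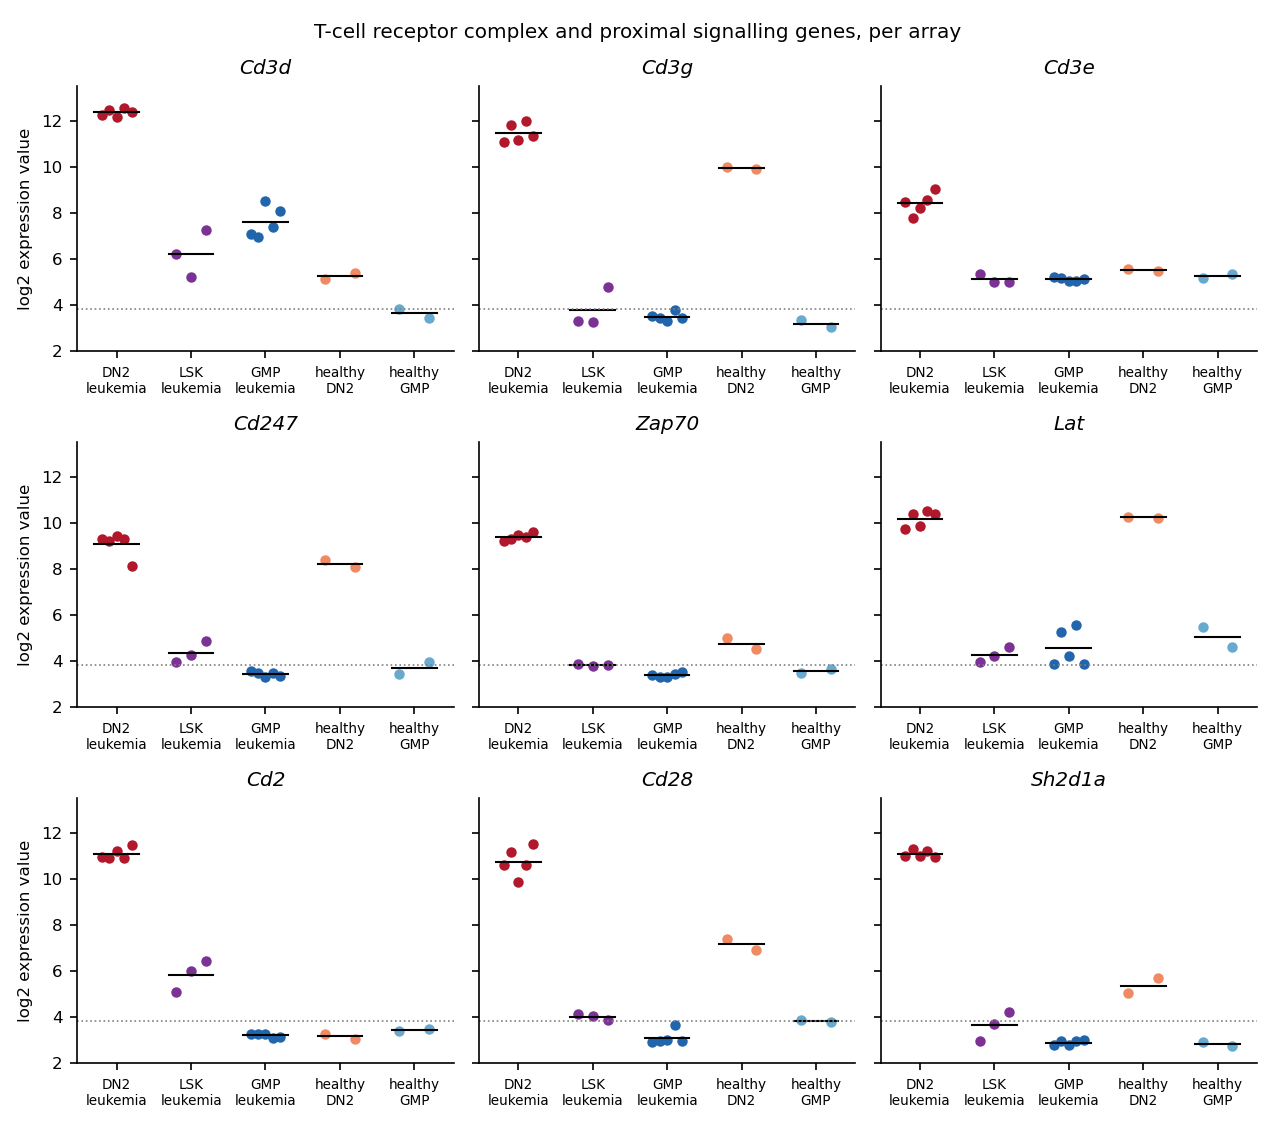
Log2 expression value (vertical axis) of the 9 genes in each of the 17 arrays, by group; each point is an array, the black line is the group mean and the dotted line is the median of all values, 3.83. In all 9 panels the 5 DN2-labelled leukemia arrays lie above the LSK-labelled and GMP-labelled arrays, while healthy DN2 cells are level with them for Lat and near the bottom for Cd2.

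Compared with GMP-labelled leukemias, all 9 genes were higher in DN2-labelled ones, a comparison of origins under the same pair of oncogenes. The differences ran from 3.28 for Cd3e to 8.19 for Sh2d1a, with a median of 5.98 against 0.03 over all genes. Of all genes tested, 21.0% were called higher in this comparison at an adjusted p under 0.05. All 9 were also higher than in the LSK-labelled leukemias, by 3.29 to 7.67 (median 5.91, against 0.11 over all genes), where 28.3% of all genes were called higher and 19.1% lower. For none of the 9 did an array of the DN2-labelled group overlap with either other leukemia group. The share of all genes tested without such overlap was not counted. Both comparisons use the same 5 DN2-labelled arrays. In bulk samples, fewer cells of a type and less RNA per cell cannot be told apart.

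Against healthy DN2 cells, the cell of origin, 7 of the 9 genes were higher in the DN2-labelled leukemias (median 3.58, against 0.01 over all genes), where 9.48% of all genes were called higher and 13.7% lower. The 9 genes spread widely here, from -0.06 for Lat to 7.91 for Cd2. Healthy DN2 cells themselves were above healthy GMP in 6 of the 9 (median 2.53, against -0.06 over all genes), where 5.78% of all genes were called higher and 5.42% lower. In the GMP-labelled leukemias against healthy GMP, 1 of the 9 was higher, Cd3d, and the other 8 were not called, where 8.08% of all genes were called higher and 13.1% lower. Of the uncalled genes, Cd3g, Cd247, Cd2, Cd28, Zap70 and Sh2d1a had both means under the median of all values. They passed the filter on low values only through other groups, and a fall from that level could hardly be measured.

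**Figure D2:**
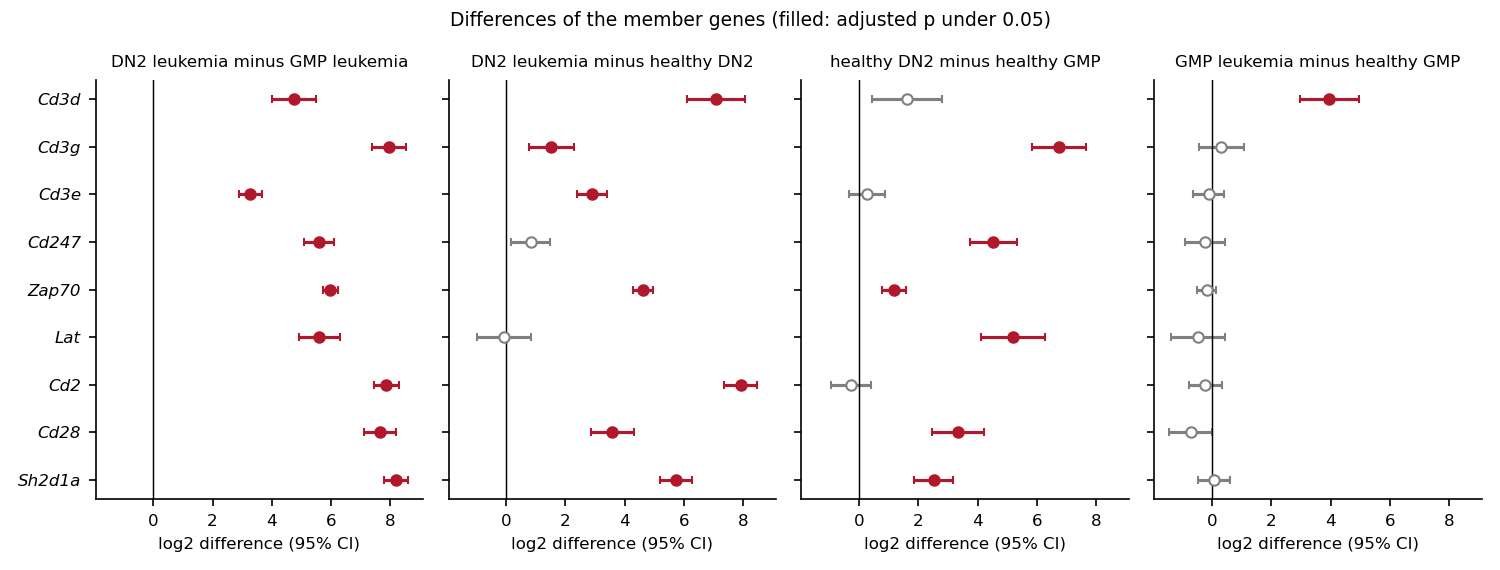
Log2 differences of the 9 genes (horizontal axis, with 95% confidence intervals from limma) in 4 comparisons; filled points have an adjusted p under 0.05. The genes with a small difference between DN2-labelled leukemia and healthy DN2 cells (Lat, Cd247, Cd3g) are those with a difference of at least 4.54 between healthy DN2 and healthy GMP.

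Of the CD3 chains, Cd3d pairs with Cd3e in the receptor complex. Its level was 12.23, 12.47, 12.17, 12.55 and 12.38 in DN2-labelled leukemia arrays 1 to 5, against 5.13 and 5.41 in healthy DN2 cells. It was 6.21, 5.22 and 7.28 in the LSK-labelled and 7.08, 6.95, 8.53, 7.41 and 8.07 in the GMP-labelled leukemia arrays, against 3.85 and 3.44 in healthy GMP. Every DN2-labelled array was above every other array, and every GMP-labelled array was above both healthy groups. The difference was 7.09 ± 0.46 between DN2-labelled leukemia and healthy DN2 cells (SE, n = 5 and 2, limma adjusted p = 2.83e-08) and 4.75 ± 0.35 between DN2-labelled and GMP-labelled leukemia (n = 5 and 5, limma adjusted p = 5.25e-08). Cd3d was the 1 gene of the 9 that rose in the GMP-labelled leukemias over healthy GMP, by 3.96 ± 0.46 (n = 5 and 2, limma adjusted p = 3.13e-05). The rise over healthy cells was larger for the DN2 than for the GMP origin, by 3.12 ± 0.65 (limma adjusted p = 0.00495). In order, the group means were 12.36 ± 0.16, 7.61 ± 0.68, 6.24 ± 1.03, 5.27 ± 0.20 and 3.65 ± 0.29 (SD) for DN2-labelled, GMP-labelled and LSK-labelled leukemia, healthy DN2 and healthy GMP, and the arrays of the LSK-labelled group overlap with both of its neighbours. The difference between healthy DN2 and healthy GMP, 1.63 ± 0.55, did not pass (n = 2 and 2, limma adjusted p = 0.0757), while it did with only those 4 arrays in the fit (limma adjusted p = 0.00103).

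Cd3g, which starts on the other side of the same stretch of chromosome 9 and also pairs with Cd3e, was distributed in another way. Its level was 11.06, 11.82, 11.17, 11.96 and 11.32 in DN2-labelled arrays 1 to 5, against 10.00 and 9.89 in healthy DN2 cells. The GMP-labelled arrays had 3.55, 3.46, 3.30, 3.79 and 3.43, against 3.36 and 3.03 in healthy GMP, and the LSK-labelled arrays had 3.33, 3.26 and 4.80. Cd3g was thus already high in the healthy cell of origin and near background in both GMP groups. It rose by 1.52 ± 0.35 in the DN2-labelled leukemias over healthy DN2 cells (SE, n = 5 and 2, limma adjusted p = 0.00561), a call that was lost without healthy DN2 array 1 (limma adjusted p = 0.0505) or array 2 (limma adjusted p = 0.0699). Against the GMP-labelled leukemias it was higher by 7.96 ± 0.27 (limma adjusted p = 7.48e-12), and in healthy DN2 over healthy GMP by 6.75 ± 0.42 (limma adjusted p = 4.12e-08). In the GMP-labelled leukemias over healthy GMP the difference was 0.31, with a 95% interval from -0.44 to 1.06.

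Cd3e, the chain that pairs with both, was 8.47, 7.79, 8.20, 8.55 and 9.06 in DN2-labelled arrays 1 to 5, against 5.56 and 5.48 in healthy DN2 cells. The other 10 arrays held a narrow range, 5.00 to 5.34. The DN2-labelled leukemias were thus the 1 group that stood apart, by 2.89 ± 0.24 over healthy DN2 cells (SE, n = 5 and 2, limma adjusted p = 4.89e-07) and by 3.28 ± 0.18 over the GMP-labelled leukemias (limma adjusted p = 2.41e-09). Between healthy DN2 and healthy GMP the Cd3e difference was 0.27, with a 95% interval from -0.35 to 0.89.

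Cd247, the zeta chain with the most tyrosine motifs of the complex, was 9.28, 9.19, 9.42 and 9.30 in DN2-labelled arrays 1 to 4 and 8.11 in array 5, against 8.36 and 8.09 in healthy DN2 cells. Array 5 thus lay within the healthy pair and the other 4 above it. The difference of 0.83 ± 0.31 over healthy DN2 cells did not pass (n = 5 and 2, limma adjusted p = 0.0664, 95% interval 0.17 to 1.49), and without array 5 it was 1.07 ± 0.22 and did (limma adjusted p = 0.00269). Of the other 3 Cd247 probe sets, 1 had 6.93 to 8.45 in the DN2-labelled arrays against 6.47 and 6.26 in healthy DN2 cells, and 1 had 4.93 to 6.66 against 4.25 and 4.12, in each case with array 5 lowest. The last was within 3.12 to 3.90 in every array. With the mean over all 4 probe sets the difference was 0.98 ± 0.22 (limma adjusted p = 0.00519). Against the GMP-labelled leukemias, with 3.34 to 3.57, Cd247 was higher by 5.60 ± 0.23 (limma adjusted p = 8.90e-11).

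Zap70 and Lat, the kinase and its substrate adaptor, behaved differently against the healthy cell of origin. Zap70 was 9.19, 9.28, 9.45, 9.37 and 9.59 in DN2-labelled arrays 1 to 5, against 5.00 and 4.51 in healthy DN2 cells, and 3.31 to 3.86 in the other 10 arrays. It rose over healthy DN2 by 4.62 ± 0.15 (SE, n = 5 and 2, limma adjusted p = 9.62e-12), and healthy DN2 was above healthy GMP by 1.18 ± 0.18 (n = 2 and 2, limma adjusted p = 0.000532). Lat was 9.73, 10.38, 9.87, 10.51 and 10.37 in DN2-labelled arrays 1 to 5, against 10.27 and 10.20 in healthy DN2 cells. These 2 groups overlapped, and the difference was -0.06 ± 0.43 (n = 5 and 2, limma adjusted p = 0.947), with a 95% interval from -0.98 to 0.85. Lat was 3.96, 4.20 and 4.62 in the LSK-labelled and 3.90, 5.27, 4.23, 5.55 and 3.88 in the GMP-labelled leukemia arrays, against 5.46 and 4.61 in healthy GMP. The DN2-labelled leukemias were above the GMP-labelled ones by 5.60 ± 0.32 (limma adjusted p = 3.57e-09), about as far as healthy DN2 above healthy GMP (5.20 ± 0.51, limma adjusted p = 5.90e-06), and the difference between these, 0.41 ± 0.60, was not called (limma adjusted p = 0.719, 95% interval -0.88 to 1.70).

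Cd2 had the largest rise over healthy DN2 cells among the 9 genes. Its level was 10.94, 10.90, 11.19, 10.90 and 11.45 in DN2-labelled arrays 1 to 5, against 3.28 and 3.05 in healthy DN2 cells. The GMP-labelled arrays had 3.11 to 3.29, against 3.39 and 3.49 in healthy GMP. Outside the DN2-labelled and LSK-labelled groups every array was thus under the median of all values. The rise was 7.91 ± 0.26 (SE, n = 5 and 2, limma adjusted p = 9.24e-12), and its excess over the change in the GMP origin was 8.13 ± 0.37 (limma adjusted p = 1.38e-09). Cd2 was also the gene in which the LSK-labelled arrays stood out, with 5.09, 6.00 and 6.42.

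Cd28 was 10.60, 11.15, 9.87, 10.60 and 11.52 in DN2-labelled arrays 1 to 5, against 7.41 and 6.92 in healthy DN2 cells. It was 3.86 to 4.15 in the LSK-labelled and 2.92 to 3.68 in the GMP-labelled leukemia arrays, against 3.87 and 3.77 in healthy GMP. Healthy DN2 cells thus lay between the leukemias of their own origin and the other groups, at 3.34 ± 0.41 above healthy GMP (n = 2 and 2, limma adjusted p = 5.37e-05). The DN2-labelled leukemias rose over them by 3.58 ± 0.34 (SE, n = 5 and 2, limma adjusted p = 2.00e-06). A second Cd28 probe set gave 9.27 to 10.69 in the DN2-labelled arrays against 6.36 and 5.09 in healthy DN2, with array 3 lowest and array 5 highest at both.

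Sh2d1a was 10.99, 11.29, 10.99, 11.21 and 10.95 in DN2-labelled arrays 1 to 5, against 5.03 and 5.68 in healthy DN2 cells. It was 2.99, 3.72 and 4.24 in the LSK-labelled arrays and 2.78 to 2.99 in the GMP-labelled leukemia arrays, against 2.92 and 2.74 in healthy GMP. As for Cd28, both healthy DN2 arrays were above every array but those of the DN2-labelled leukemias. The rise over healthy DN2 was 5.73 ± 0.26 (SE, n = 5 and 2, limma adjusted p = 3.78e-10), and healthy DN2 was above healthy GMP by 2.53 ± 0.31 (limma adjusted p = 5.72e-05).

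The change from healthy to leukemia was larger for the DN2 than for the GMP origin in 6 of the 9 genes (Cd3d, Cd3e, Cd2, Cd28, Zap70 and Sh2d1a), where 6.39% of all genes were called in this direction and 6.28% in the other. The median excess was 3.12, against 0.09 over all genes. For Cd3g (1.21 ± 0.50, limma adjusted p = 0.137) and Cd247 (1.07 ± 0.44, limma adjusted p = 0.136) it did not pass, and for Lat it was 0.41. In the GMP-labelled leukemias the 8 genes other than Cd3d differed from healthy GMP by -0.72 (Cd28) to 0.31 (Cd3g), and none was called by limma, with none of these 8 at an unadjusted p under 0.05. Both means were under the median of all values for Cd3g, Cd247, Cd2, Cd28, Zap70 and Sh2d1a.

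Among the 5 DN2-labelled arrays, the 9 genes ranged by 0.34 (Sh2d1a) to 1.65 (Cd28) on the log2 scale, with a median range of 0.78, against 0.67 over all genes tested. Sh2d1a, Cd3d (0.38), Zap70 (0.41) and Cd2 (0.55) had smaller ranges than that median over all genes. Lat (0.78), Cd3g (0.90), Cd3e (1.26), Cd247 (1.31) and Cd28 had wider ones. The ranges of Cd3e, Cd247 and Cd28 were wider than those of 80.5%, 81.7% and 87.9% of all genes tested. Of the 12 NK genes, 8 had a wider range in the same arrays than any of the 9 genes, and the other 4, Il2rb (0.59), Klrb1c (1.02), Eomes (1.03) and Nkg7 (1.20), had a range within theirs. Of the genes of the sort, Itgam ranged by 4.14, Cd8a by 0.79 and Cd4 by 0.17. Ncr1, an NK receptor, was 9.56 and 9.95 in arrays 1 and 3 and 3.40, 4.50 and 3.82 in arrays 2, 4 and 5. Gzmb, a granzyme, was 12.08 and 11.57 in arrays 1 and 3 and 4.75, 5.46 and 6.94 in the other 3, and Prf1, perforin, was 8.65 and 8.53 against 4.28, 5.69 and 4.79. These are the arrays in which Itgam was 7.17 and 7.38. Klrc1, another NK receptor, was low in array 2 alone, at 5.46, against 9.35 to 10.87 in the other 4. Each of the 9 receptor genes was high in all 5 arrays, and no array was lowest for more than 3 of them: array 1 was lowest for Cd3g, Zap70 and Lat, array 3 for Cd3d and Cd28, array 2 for Cd3e, array 4 for Cd2, and array 5 for Cd247 and Sh2d1a. Without arrays 1 and 3 the counts of called genes were the same, 9 of 9 against the GMP-labelled and LSK-labelled leukemias and 7 of 9 against healthy DN2 cells.

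**Figure D3:**
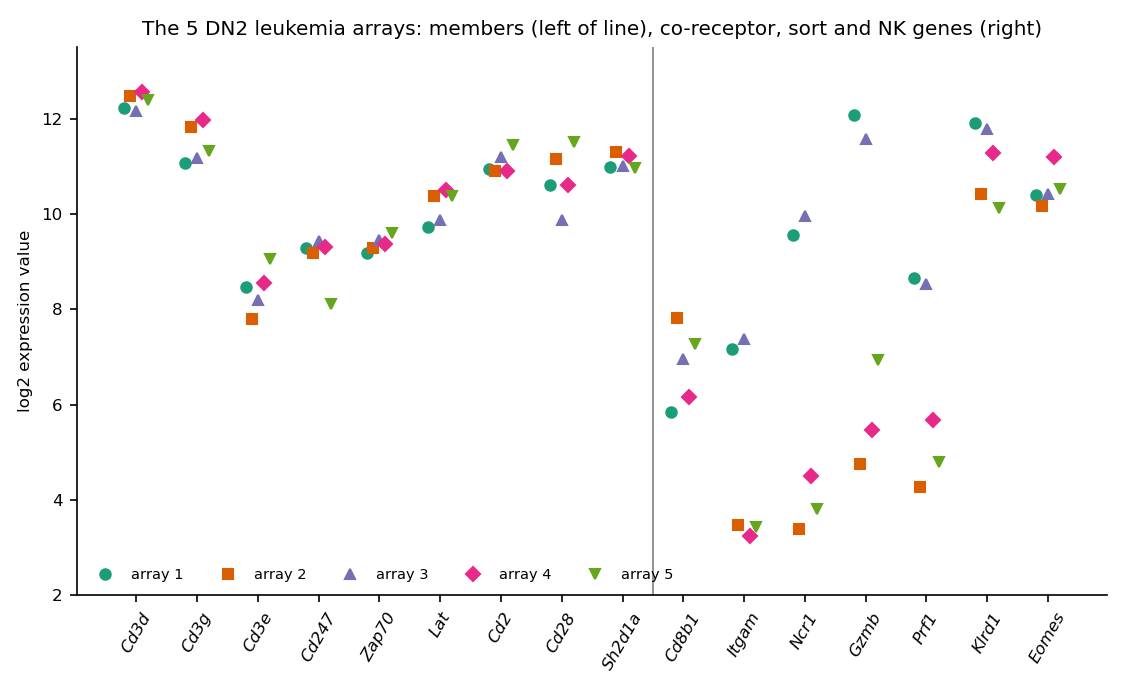
Log2 expression value (vertical axis) in the 5 DN2-labelled leukemia arrays, 1 symbol and colour per array, for the 9 genes left of the grey line and for the co-receptor gene Cd8b1, Itgam and 5 NK genes right of it. The 9 genes range over at most 1.65 across arrays, while Ncr1, Gzmb, Prf1 and Itgam set arrays 1 and 3 above the other 3.

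Markers of other cell types also differed between the groups, though not always as the 9 genes did. Between healthy DN2 and healthy GMP, 6 of the 9 genes and 1 of 12 NK genes were higher, beside 5.78% of all genes tested. In DN2-labelled leukemias all 12 NK genes measured were higher than in GMP-labelled ones, and 9 of 12 were higher than in healthy DN2 cells. Of all genes tested, 21.0% and 9.48% were called higher in these comparisons. The mean over the list was 8.21 to 11.02 in the DN2-labelled, 5.58 to 7.19 in the LSK-labelled and 3.55 to 4.07 in the GMP-labelled leukemias, while healthy DN2 cells had 4.87 to 4.92 and healthy GMP 4.41 to 4.44. Eomes, a transcription factor of NK cells and cytotoxic T cells, was 10.16 to 11.19 in the DN2-labelled arrays, against 3.27 and 3.78 in healthy DN2. Of the mature T-cell list 5 of 6 tested genes were higher than in the GMP-labelled arrays, with list means of 6.08 to 6.61 against 3.41 to 3.70. The B-cell list mean was 3.54 to 4.24 in the DN2-labelled arrays, against 4.05 to 4.11 in healthy DN2. Cd4 was 3.45 to 3.63 in the DN2-labelled arrays, under the median of all values, and Cd8a was 3.59 to 4.38. The part of NK cells or mature T cells in the levels of the 9 genes was not tested.

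Between the LSK-labelled and GMP-labelled leukemias, 5 of the 9 genes were higher and 1 lower, where 10.3% of all genes were called higher and 16.5% lower. Cd2 differed most, by 2.62 ± 0.23 (SE, n = 3 and 5, limma adjusted p = 3.65e-06), with no overlap of arrays. Cd247, Cd28, Zap70 and Sh2d1a were higher by 0.43 to 0.92 and Cd3d was lower, at -1.37 ± 0.40 (limma adjusted p = 0.0202). Arrays of these groups overlapped for Sh2d1a and Cd3d. The means of Zap70 (3.83 and 3.40) and Sh2d1a (3.65 and 2.90) were near background. Zap70 and Sh2d1a passed the filter on low values only through other groups. With the mean over the probe sets of a gene, Cd247 (0.39, limma adjusted p = 0.161) and Cd28 (0.57, limma adjusted p = 0.177) lost their call. The count of called genes also rests on single arrays. It was 1 without LSK-labelled array 2, 2 without array 3, and 1 without both, where the spread of the lone array 1 is taken from the other groups. With array 1 alone the remaining call was Cd2, at 1.88 ± 0.21 (limma adjusted p = 8.27e-05). LSK-labelled array 3 had the highest values of Cd3d, Cd3g, Cd247, Cd2, Lat and Sh2d1a in its group, and the NK gene Klrd1 was 5.55, 7.60 and 8.31 in LSK-labelled arrays 1 to 3, against 2.72 to 3.16 in the GMP-labelled arrays. Of the 12 NK genes, 8 were higher in the LSK-labelled than in the GMP-labelled leukemias. The part of NK cells in these differences was not tested.

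Other genes of the same pathway were read from 5 lists, of which 55 genes were tested. Against the GMP-labelled leukemias 35 were higher and 2 lower in the DN2-labelled arrays (median difference 2.02, against 0.03 over all genes), beside the 21.0% and 18.8% of all genes. Against healthy DN2 cells 20 were higher and 6 lower (median 0.68, against 0.01 over all genes), beside 9.48% and 13.7%.

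Among the receptor chains and co-receptors, 4 of 5 genes tested were higher than in the GMP-labelled leukemias, beside 21.0% of all genes. They include Cd8a, at 3.59 to 4.38 in the DN2-labelled arrays against 3.29 to 3.66 in the GMP-labelled ones. These Cd8a values are near background and overlap. Cd5, a receptor that dampens T-cell receptor signals, was higher by 5.96 ± 0.16, Cd8b1, a chain of the CD8 co-receptor, by 3.66 ± 0.38, and Cd6 by 3.02 ± 0.28 (SE, n = 5 and 5, limma adjusted p = 7.03e-13, 1.88e-06 and 7.36e-07). Cd8b1 was 5.84, 7.81, 6.96, 6.15 and 7.27 in DN2-labelled arrays 1 to 5, against 3.33 and 3.85 in healthy DN2 cells. It rose over healthy DN2 by 3.22 ± 0.50, as did Cd5 by 1.93 ± 0.21. Ptcra, the pre-T-cell receptor alpha chain, did not pass the filter on low values, with 3.10 to 3.30 in the DN2-labelled arrays against 3.31 and 3.52 in healthy DN2. Tcra did not pass it either, with 2.96 to 3.11 against 2.97 and 3.03. The variable and constant genes of the other receptor chains were not analysed here.

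Of the 13 other kinases and phosphatases, 8 were higher and 2 lower than in the GMP-labelled leukemias, beside 21.0% and 18.8% of all genes. Prkcq, the protein kinase C isoform of T cells, was higher by 6.74 ± 0.50, the Tec family kinase Txk by 5.90 ± 0.24 and the Src family kinase Fyn, a relative of Lck, by 4.86 ± 0.32. Txk rose over healthy DN2 cells too, to 9.31 ± 0.54 in the DN2-labelled arrays, against 3.58 ± 0.09 in healthy DN2 (SD, n = 5 and 2), a difference of 5.73 ± 0.31 (SE, limma adjusted p = 3.84e-09). The genes that were lower than in the GMP-labelled leukemias were the phosphatase Ptpn6 (-1.45 ± 0.29) and Syk, the relative of Zap70 (-0.83 ± 0.17), both named after their values were seen.

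Of 20 other adaptors and effectors, 11 were higher and none lower than in the GMP-labelled leukemias, with 14 at an unadjusted p under 0.05 in limma. Of all genes tested, 21.0% were called higher and 18.8% lower there, at the adjusted threshold. The share of all genes at the unadjusted threshold was not counted. Skap1 (6.56 ± 0.18), Rasgrp1, the activator of Ras downstream of the receptor (5.60 ± 0.36), and Trat1 (5.53 ± 0.26) had the largest differences. Against healthy DN2 cells 6 were higher and 4 lower, beside 9.48% and 13.7% of all genes. The list median was 0.10, against 0.01 over all genes. Sh2d2a (3.21 ± 0.34) and Malt1 (2.88 ± 0.38) rose most. Themis, a protein of thymocyte selection, was 3.82 to 5.96 in the DN2-labelled arrays, against 7.43 and 7.98 in healthy DN2, a difference of -2.74 ± 0.39 (SE, n = 5 and 2, limma adjusted p = 0.000123). The other 3 that fell, Tespa1, Trat1 and Sla2, differed by -1.92 to -1.02, and were named after their values were seen.

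Of 11 co-stimulatory and inhibitory receptors, 9 were higher and none lower than in the GMP-labelled leukemias, with 9 at an unadjusted p under 0.05 in limma. Of all genes tested, 21.0% were called higher and 18.8% lower in that comparison, at the adjusted threshold. Here too the share at the unadjusted threshold was not counted. Cd27 was higher by 5.72 ± 0.18 and Icos, a relative of Cd28, by 5.12 ± 0.25. Against healthy DN2 cells Btla (5.07 ± 0.51), Icos (3.82 ± 0.33) and Pdcd1 (3.06 ± 0.53) rose, and Cd96 fell (-3.22 ± 0.56). Btla was high in the leukemias of DN2 and GMP origin. It was 9.27 ± 0.35 in the DN2-labelled leukemias against 4.20 ± 0.13 in healthy DN2 cells (SD). In those labelled GMP it was 9.11 ± 0.73, against 5.60 ± 0.34 in healthy GMP (SD). The LSK-labelled leukemias were called lower in Btla than the GMP-labelled ones. Of 6 SLAM family genes 3 were higher than in the GMP-labelled leukemias, with Slamf6, a receptor to which Sh2d1a binds, at 6.18 ± 0.16. Slamf6 was 9.35 to 9.99 in the DN2-labelled arrays, against 6.13 and 6.80 in healthy DN2 cells, and rose by 3.22 ± 0.21 (limma adjusted p = 2.23e-08). Ly9 rose over healthy DN2 by 3.98 ± 0.27.

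**Figure D4:**
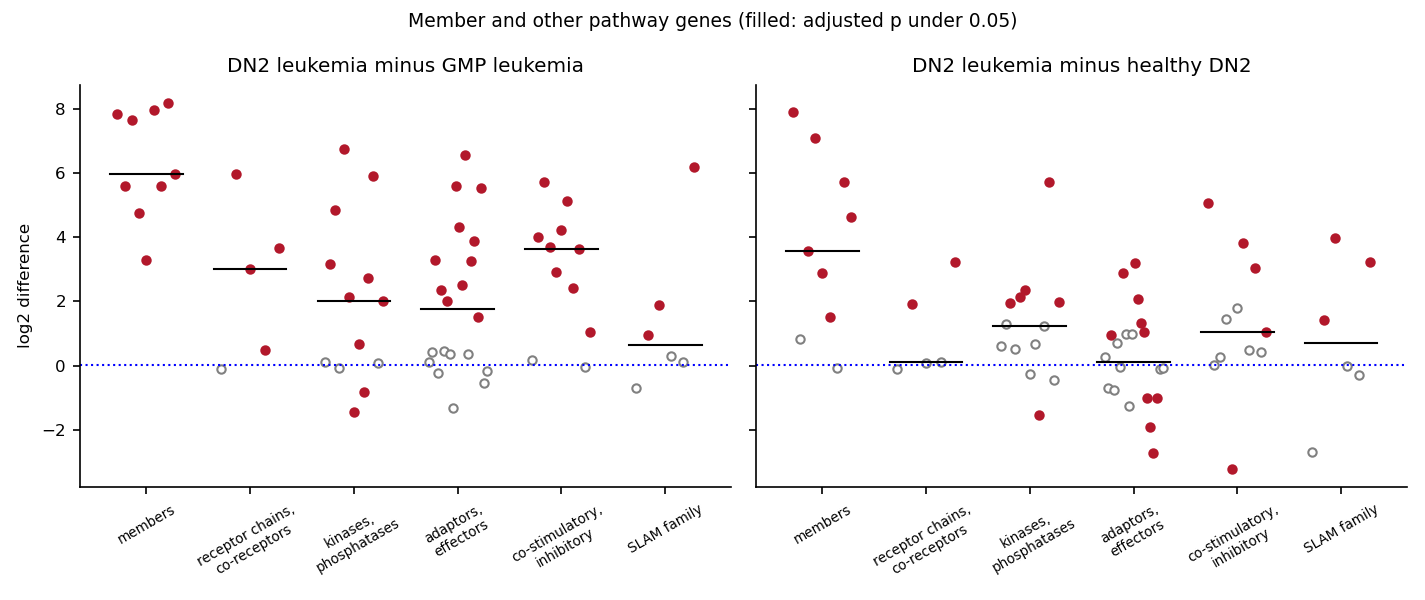
Log2 differences (vertical axis) of the 9 genes and of the genes of 5 lists of the same pathway, DN2-labelled leukemia minus GMP-labelled leukemia (left) and minus healthy DN2 cells (right); filled points have an adjusted p under 0.05, the black line is the median of a list and the dotted line the median of all genes. The medians of the 9 genes are 5.98 and 3.58, and those of receptor chains and of adaptors are 0.12 and 0.10 on the right.

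The genes nearest to the mean profile of the 9 were found by the root mean square difference of centred log2 values over the 17 arrays. They were Slamf6 (0.32), Fgf13 (0.58), Cd5 (0.61), Icos (0.73) and Apobec2 (0.82). Of the 9 genes themselves, Zap70 (0.47) was nearest to their mean profile and Cd3d (1.64) was farthest. Apobec2 was 9.09 to 10.08 in the DN2-labelled arrays, against 3.35 and 3.58 in healthy DN2 cells, and Fgf13 was 7.99 to 8.89, against 6.12 and 6.35.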

How the data were processed

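Affymetrix mouse arrays were hybridised with targets made from 300 ng of total RNA per array with a 3' IVT Express kit, per the labels' protocols. The deposited values are log2 summaries per probe set made by the authors, for which RMA and affy are named, per the submitters' processing notes. Versions, parameters and joint normalization of the arrays are not given in the sources used for this work. The table holds 45141 probe sets, of which 104 controls were left out, and no detection calls. Names came from the platform annotation (28898 probe sets with 1 symbol, 551 with several), updated by Entrez identifier to RefSeq (28689 matched).

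Each gene was represented by its probe set of highest mean, and entered the tests when the mean of at least 1 group lay above 3.83, the median over the table. Differences were tested with limma 3.58.1 in R 4.3.3 (lmFit and eBayes) on all 17 arrays with a mean per group, two-sided, with Benjamini-Hochberg adjustment over the 11629 genes tested, at an adjusted p under 0.05. Groups came from the labels. Members and lists were chosen with earlier results of these data known. Named genes were the 9 members, up to 4 genes per list and comparison, the 5 nearest genes and marker genes. The procedure was tested on simulated data. Alternatives were other fits, filters, probe sets, normalizations, a replicate block and leaving out arrays. Some listed genes had no probe set of 1 symbol and are not reported here. The number of arrays limits the precision.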

Additional observations from a re-analysis of the deposited data

Results flagged for a closer look

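Of 18 groups of 5 arrays examined, chance would single out about 1 in 20, and 2 held an array far from the others: Cd247 at 8.11 in DN2-labelled leukemia array 5, where the other 4 had 9.19 to 9.42, and Cd28 at 3.68 in GMP-labelled array 4, where the other 4 had 2.92 to 3.00. The change from healthy to leukemia differed between the DN2 and the GMP origin, by limma's test of the difference itself, for Cd3d (3.12), Cd3e (3.01), Cd2 (8.13), Cd28 (4.30), Zap70 (4.80) and Sh2d1a (5.67), each larger for DN2.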

How the results depend on the processing

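Of 1070 alternative values of the members' differences, 1032 kept their side of the threshold, 30 lost the call and 8 gained it. Direction reversed in 0 of those called in either fit. Changes of direction between values not called in either fit are among the 1032 and were not counted apart. A further 10 gave no value with only the arrays compared in the fit, since the genes then fell under the filter on low values. The number of members called between LSK-labelled and GMP-labelled leukemias was 6, and 3 with only the arrays compared in the fit, 1 without LSK-labelled arrays 2 and 3, and 1 to 6 when single arrays were left out. Of the 3 calls missing with only the arrays compared, Zap70 and Sh2d1a were not tested there because of that filter and Cd3d lost its call (limma adjusted p = 0.106); for the left-out arrays the cause was not tested. Leaving out single arrays gave 9 in each comparison of DN2-labelled with other leukemias, 6 to 8 against healthy DN2, 1 for GMP-labelled leukemia against healthy GMP, 6 between the healthy groups and 6 to 7 for the difference between origins. Where a group is left with 1 array, its spread is taken from the other groups. Other pathway genes called higher in GMP-labelled leukemia over healthy GMP numbered 8, and 3 to 8 under the alternatives; for the difference between origins they numbered 17, and 11 to 17, and between the LSK-labelled and GMP-labelled leukemias 15, and 9 to 17. The replicate numbers were not treated as a pairing. Deviations of same-numbered arrays correlated at -0.30 to 0.25 across genes. Whether same-numbered arrays were handled together cannot be told from these values. With the replicate number as a block the members called were 9, 9, 7, 1, 5, 6 and 6 in the 7 comparisons. Values near background limit what can be read from small differences of Cd2, Cd28, Zap70 and Sh2d1a outside the DN2-labelled arrays.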
